A study of Homo sapiens with 36 samples.

Results

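GDF15, FGF21, INHBE and STC2 encode secreted factors, and VLDLR, LAMP3 and NIBAN1 (older symbol FAM129A) encode a cell surface receptor, a lysosomal membrane protein and a cytoplasmic protein. These 7 genes, of 57820 in the count table, were followed through all 12 conditions of an RNA-seq experiment in A2780 cells. They were chosen by their responses in the same libraries, as top responders to serine and glycine deprivation or to carboplatin, with no stated threshold. Their levels under both treatments are therefore described without a test. Only the differences between the lines in complete medium without carboplatin were tested, and the libraries in complete medium also served as controls of the responses that chose the genes.

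A2780 is an established human ovarian cancer cell line. The study compared the parental cells (wt), their cisplatin-resistant counterpart made by chronic exposure to cisplatin (cis), and cells that grew out of cis cells kept without serine and glycine (cis SSP), and asked how serine metabolism relates to platinum response. Each line was kept in complete medium or in medium lacking serine and glycine (-SG), either untreated or with carboplatin (carbo), a platinum drug that damages DNA. The labels give the carboplatin dose as 6 M, but the study's growth and tracer assays of wt and cis cells used 6 µM. The unit of the label is therefore in doubt, and no other dose is stated for the sequenced cells. The study's methods name a default time point with the growth assays, and none with the RNA sequencing itself. All 12 conditions share the A2780 origin, cis and cis SSP are each 1 derived line, and each condition has 3 libraries, numbered 1 to 36 over the series. The study's legends call such libraries technical replicates, so their spread and the p-values do not cover independent cultures.

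Amino acid shortage activates the kinase GCN2 (EIF2AK4), which phosphorylates the translation factor eIF2alpha and so favours translation of the transcription factor ATF4. ATF4 binds elements shared by C/EBP and ATF proteins and switches on genes of amino acid synthesis, transport and stress signalling, to which FGF21, INHBE, STC2, VLDLR, LAMP3 and NIBAN1 are known to belong or to be linked. GDF15 is known to be induced both through this branch and by DNA damage.

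The libraries held between 13074937 and 20441582 counts on genes. Levels are given in CPM, counts scaled to the library total with edgeR's TMM factors, which does not correct for gene length, so levels are compared only within a gene. Libraries 25 (cis SSP) and 32 (cis SSP -SG) stood apart from the other libraries of their conditions: the 4 highest of 36 mean chi-square values between libraries of a condition, 103 to 123, all involved one of them. In libraries 23 and 24 (cis -SG carbo) 17.9% and 14.9% of counts fell on no feature, against at most 9.31% elsewhere. Of 8 ovarian epithelial markers, only KRT8 and KRT18 reached a mean of 1 CPM, while PAX8, MUC16, WT1, EPCAM, KRT7 and CDH1 did not, so these cells largely lacked these markers of ovarian epithelium. Of 11 markers of other cell types found in the table, 4 reached it, the mesenchymal genes COL1A1, COL1A2, DCN and PDGFRB, and the immune cell gene CD3E had no count, which over the 36 libraries allows up to 0.00486 CPM (3 counts, counting error only).

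On GRCh37, the build of the counting, GDF15 (ENSG00000130513) lies at chr19:18485541-18499986 and FGF21 (ENSG00000105550) at chr19:49258781-49261590, both on the plus strand. INHBE (ENSG00000139269) lies at chr12:57846106-57853063 on the plus strand and STC2 (ENSG00000113739) at chr5:172741726-172755450 on the minus strand. VLDLR (ENSG00000147852) lies at chr9:2621182-2660056 on the plus strand, LAMP3 (ENSG00000078081) at chr3:182840003-182881627 on the minus strand and NIBAN1 (ENSG00000135842) at chr1:184759858-184943640 on the minus strand. All are protein-coding, and counts are over exons. The strand setting of the counting is not stated. On the opposite strand VLDLR overlaps the noncoding genes VLDLR-AS1 and ENSG00000286670, and INHBE overlaps ENSG00000287200. On the same strand GDF15 overlaps the microRNA gene MIR3189, and NIBAN1 overlaps the small nuclear RNA gene RNU7-13P. VLDLR-AS1 had 6 to 114 counts per library, 5.18% of the VLDLR counts in total.

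Promoter sequences from RefSeq on GRCh38.p14 were matched for 5 of the 7 genes, GDF15, FGF21, STC2, VLDLR and NIBAN1. The 250 bases before the start are shown for FGF21, the one promoter with a match to the C/EBP-ATF element, and for GDF15, the gene whose level under carboplatin set it apart from the others. Both read 5′ to 3′ on the plus strand, and capitals mark the match in FGF21.
FGF21, chr19:48755274-48755523: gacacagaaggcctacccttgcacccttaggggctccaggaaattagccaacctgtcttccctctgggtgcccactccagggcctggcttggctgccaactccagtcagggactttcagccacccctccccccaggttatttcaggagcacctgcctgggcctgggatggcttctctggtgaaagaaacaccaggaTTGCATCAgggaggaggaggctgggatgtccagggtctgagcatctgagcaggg
GDF15, chr19:18385908-18386157: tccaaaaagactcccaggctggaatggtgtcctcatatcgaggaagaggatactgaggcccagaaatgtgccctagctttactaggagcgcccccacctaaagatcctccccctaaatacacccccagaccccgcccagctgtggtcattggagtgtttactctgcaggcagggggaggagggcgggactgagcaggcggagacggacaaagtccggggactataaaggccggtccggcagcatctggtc
The element searched was TGATGNAA on either strand, in windows that also took in the first 50 bases after the start. It was present in 1270 of 35116 promoters (3.62%), and the FGF21 match lies on the reverse strand, 54 to 47 bases before the start. No match to the cyclic AMP response element TGACGTCA (1.85% of promoters) or to the E-box CACGTG (7.26%) was found in the 5 promoters, which says only that these letters are absent from these windows.

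The genes fell into different patterns over the 12 conditions. GDF15 was highest in carboplatin-treated wt cells, FGF21, INHBE and STC2 in wt cells without serine and glycine, VLDLR in cis SSP cells without serine and glycine, and LAMP3 and NIBAN1 in cis cells without serine and glycine. The highest condition mean was 284 times the lowest for LAMP3, 83.6 times for NIBAN1, 55.1 times for GDF15 and 45.6 times for FGF21. It was 9.10 times the lowest for INHBE, 5.01 times for STC2 and 4.05 times for VLDLR.

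**Figure D1:**
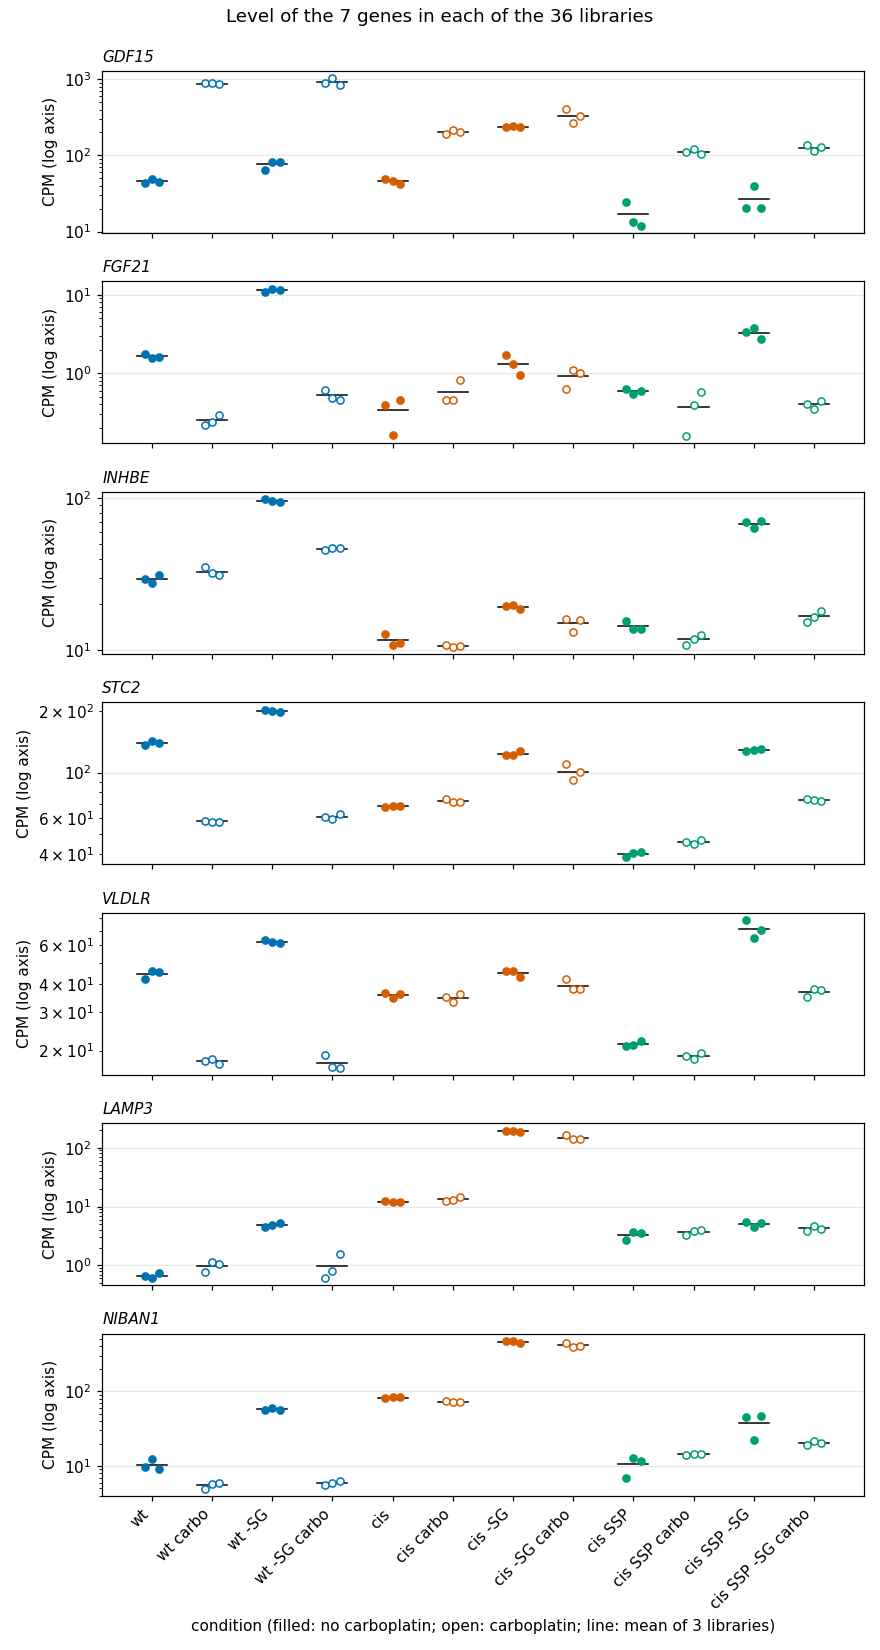
Level of each gene (CPM, log axis, scaled separately for each gene) in the 3 libraries of each of the 12 conditions, in blue for wt, orange for cis and green for cis SSP. Filled points are libraries without carboplatin, open points libraries with carboplatin, and the black line is the mean. The GDF15 means are 878 and 923 CPM in the carboplatin conditions of wt cells, and LAMP3 and NIBAN1 stand highest in the cis conditions without serine and glycine.

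GDF15 encodes a hormone of the TGF-beta family that is released by stressed cells and acts on a receptor in the hindbrain. In complete medium it was at 43.5, 48.7 and 45.2 CPM in wt, at 49.5, 46.6 and 42.7 CPM in cis and at 24.8, 13.5 and 11.9 CPM in cis SSP. The wt and cis libraries overlapped, and all 3 cis SSP libraries were lower, with library 25 highest among them. Carboplatin-treated libraries were at 880.3, 892 and 861 CPM in wt carbo, 191, 212 and 200.5 CPM in cis carbo and 110.2, 122 and 105 CPM in cis SSP carbo. In every line all 3 treated libraries were above all 3 untreated ones, and the ratio of means was 19.2 in wt, 4.35 in cis and 6.71 in cis SSP. Deprivation alone gave 63.5, 82.5 and 81.8 CPM in wt -SG, 233, 244 and 234 CPM in cis -SG and 20.6, 40.1 and 20.3 CPM in cis SSP -SG. The deprived libraries were all higher than the controls in wt (1.66-fold) and cis (5.12-fold), whereas in cis SSP the groups overlapped and library 32 was the highest. With both treatments the libraries were at 889.5, 1033 and 848 CPM in wt -SG carbo, 407, 266 and 326 CPM in cis -SG carbo and 136, 114 and 129 CPM in cis SSP -SG carbo. The wt and cis SSP libraries then overlapped with those under carboplatin alone, and the cis libraries were all higher than under carboplatin alone, at 1.65 times its mean. Libraries 23 and 24 held the 2 lower cis values.

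FGF21 encodes a hormone of fasting and nutrient stress that signals through FGF receptors with the co-receptor beta-klotho (KLB). It had 1154 counts in all, so single counts moved its level. Its levels were 1.77, 1.55 and 1.63 CPM in wt and 10.8, 11.9 and 11.4 CPM in wt -SG, with no overlap and a ratio of 6.90. In cis cells the libraries held 6, 3 and 8 counts in complete medium, or 0.396, 0.162 and 0.451 CPM in cis, and 1.68, 1.31 and 0.945 CPM in cis -SG. In cis SSP cells the levels were 0.636, 0.538 and 0.598 CPM in cis SSP and 3.31, 3.72 and 2.73 CPM in cis SSP -SG. All 3 deprived libraries were above the controls in both lines, 3.90-fold in cis and 5.51-fold in cis SSP. Under carboplatin the wt libraries held 4, 4 and 5 counts, or 0.217, 0.241 and 0.291 CPM in wt carbo, all below the controls (6.61-fold lower). Carboplatin without serine and glycine gave 0.617, 0.490 and 0.456 CPM in wt -SG carbo and 0.405, 0.351 and 0.446 CPM in cis SSP -SG carbo, 21.9-fold and 8.13-fold lower than deprivation alone with no overlap. The cis libraries were at 0.460, 0.452 and 0.810 CPM in cis carbo and 0.632, 1.11 and 1.02 CPM in cis -SG carbo, and those of cis SSP carbo at 0.158, 0.388 and 0.576 CPM. In the order of its 12 means only wt -SG and cis SSP -SG stood clear of all conditions below them.

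INHBE encodes the inhibin beta E subunit, which forms activin E, a factor known mainly from liver. Its levels were 29.3, 27.7 and 31.2 CPM in wt and 99, 95.9 and 94.3 CPM in wt -SG. For cis they were 12.7, 10.8 and 11.1 CPM in cis and 19.3, 19.8 and 18.5 CPM in cis -SG, and for cis SSP 15.4, 13.8 and 13.8 CPM in cis SSP and 69.6, 63.7 and 71.3 CPM in cis SSP -SG. Deprived libraries were above the controls in each line, and the ratio was largest in cis SSP (4.76), then wt (3.28), then cis (1.67). Carboplatin alone gave 35.3, 31.99 and 31.3 CPM in wt carbo, 10.7, 10.5 and 10.6 CPM in cis carbo and 10.8, 11.8 and 12.6 CPM in cis SSP carbo, within 1.22-fold of the controls in either direction. With both treatments the levels were 45.9, 47.02 and 47.1 CPM in wt -SG carbo, 15.98, 13.1 and 15.7 CPM in cis -SG carbo and 15.3, 16.4 and 18.04 CPM in cis SSP -SG carbo. All 3 were then above carboplatin alone in every line, at ratios of 1.42 in wt, 1.41 in cis and 1.42 in cis SSP.

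STC2 encodes stanniocalcin 2, a secreted glycoprotein that inhibits the protease PAPPA and so keeps insulin-like growth factors bound. It was at 136, 142 and 139 CPM in wt and 203, 199.6 and 198 CPM in wt -SG, 1.44-fold higher without overlap. The cis libraries were at 67.6, 68.8 and 68.5 CPM in cis and 122, 121 and 127 CPM in cis -SG (1.81-fold), and those of cis SSP at 38.6, 40.5 and 40.8 CPM in cis SSP and 127, 128 and 129.8 CPM in cis SSP -SG (3.21-fold). The replicates lay close together and no deprived library overlapped its controls. Carboplatin alone gave 58.3, 57.3 and 57.6 CPM in wt carbo, 73.8, 71.4 and 71.8 CPM in cis carbo and 45.5, 44.8 and 46.6 CPM in cis SSP carbo. The wt libraries were 2.41-fold lower than untreated, while those of cis and cis SSP lay slightly above untreated, at ratios of 1.06 and 1.14. Under both treatments STC2 was at 60.4, 59.4 and 62.5 CPM in wt -SG carbo, 109.8, 92.1 and 100.5 CPM in cis -SG carbo and 74.7, 73.01 and 72.7 CPM in cis SSP -SG carbo, so that wt cells, highest of the lines in either medium without the drug, were lowest with both treatments.

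VLDLR encodes an endocytic receptor for triglyceride-rich lipoproteins and for reelin. It was at 42.1, 45.8 and 45.5 CPM in wt and 63.6, 62.03 and 61.9 CPM in wt -SG, at 36.6, 34.7 and 36.1 CPM in cis and 46.05, 45.8 and 43.4 CPM in cis -SG, and at 20.9, 21.1 and 22 CPM in cis SSP and 78.3, 64.9 and 70.5 CPM in cis SSP -SG. The deprived libraries were all higher, by 1.41-fold in wt, 1.26-fold in cis and 3.34-fold in cis SSP, where library 32 was the lowest of the deprived ones. Carboplatin alone gave 17.9, 18.4 and 17.4 CPM in wt carbo, 2.48-fold lower than untreated. In cis it gave 35.1, 33.2 and 35.98 CPM in cis carbo, which overlapped the controls, and in cis SSP 18.8, 18.4 and 19.5 CPM in cis SSP carbo, all slightly below them. With both treatments the libraries were at 19.1, 16.9 and 16.8 CPM in wt -SG carbo, 42.4, 38.1 and 37.99 CPM in cis -SG carbo and 35, 38.2 and 37.7 CPM in cis SSP -SG carbo. The wt libraries overlapped with carboplatin alone, whereas the cis SSP libraries were 1.96-fold above it.

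LAMP3 encodes a lysosome-associated membrane protein that is known from dendritic cells and is induced by hypoxia and the unfolded protein response. The wt libraries were at 0.664, 0.610 and 0.734 CPM in wt and 4.57, 4.84 and 5.21 CPM in wt -SG, a ratio of 7.27. The cis libraries were at 12.4, 11.8 and 12.2 CPM in cis and 192, 195 and 183 CPM in cis -SG, a ratio of 15.7. The cis SSP libraries were at 2.69, 3.65 and 3.53 CPM in cis SSP and 5.51, 4.44 and 5.29 CPM in cis SSP -SG, a ratio of 1.54. Groups did not overlap in any line, and the deprived cis libraries were far above all others. Under carboplatin alone the levels were 0.758, 1.15 and 1.05 CPM in wt carbo, 12.6, 12.96 and 14.7 CPM in cis carbo and 3.31, 3.77 and 3.98 CPM in cis SSP carbo. With both treatments they were 0.617, 0.796 and 1.56 CPM in wt -SG carbo, 163, 139 and 142 CPM in cis -SG carbo and 3.91, 4.63 and 4.21 CPM in cis SSP -SG carbo. In wt, where the libraries held few LAMP3 counts (from 9), deprived and complete medium overlapped once carboplatin was present, but in cis the ratio was still 11.02.

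NIBAN1 encodes a cytoplasmic protein induced by stress and linked to translation control through eIF2alpha. It was at 9.74, 12.3 and 9.07 CPM in wt and 56.4, 59.5 and 56.4 CPM in wt -SG, 5.53-fold higher. In cis it was at 80.8, 82.9 and 82.95 CPM in cis and 468, 473 and 451 CPM in cis -SG, 5.65-fold higher, a ratio near that of wt at a higher level. In cis SSP it was at 6.93, 12.98 and 11.6 CPM in cis SSP and 45.2, 22.4 and 46.03 CPM in cis SSP -SG (3.60-fold), with the apart libraries 25 and 32 lowest in their groups. Carboplatin alone gave 4.98, 5.73 and 5.94 CPM in wt carbo, 74.9, 72.5 and 71.7 CPM in cis carbo and 13.9, 14.5 and 14.6 CPM in cis SSP carbo. These libraries lay below untreated ones in wt and cis and above them in cis SSP. With both treatments the levels were 5.48, 5.94 and 6.26 CPM in wt -SG carbo, 445, 394 and 408 CPM in cis -SG carbo and 18.9, 21.7 and 20.6 CPM in cis SSP -SG carbo. The deprivation ratio under carboplatin was 1.06 in wt, with overlap, 5.70 in cis and 1.42 in cis SSP.

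In complete medium without carboplatin the lines differed in these genes. These are not cells without a history, since cis cells had earlier met cisplatin and cis SSP cells had been kept without serine and glycine. By edgeR's quasi-likelihood test over all genes (3 libraries against 3, Benjamini-Hochberg adjusted p under 0.05), 6 of the 7 genes were called between cis and wt. LAMP3 and NIBAN1 were higher in cis, and FGF21, INHBE, STC2 and VLDLR were lower. Of all 14431 genes tested, 39.4% were called higher and 39.1% lower, so a call by itself did not mark these genes. LAMP3 was higher in cis by a log2 fold change of 4.13 (SE 0.163) with adjusted p = 1.88e-26, and NIBAN1 by 2.96 (SE 0.0616) with adjusted p = 1.76e-34. FGF21 was at -2.33 (SE 0.325) with adjusted p = 1.76e-08, INHBE at -1.39 (SE 0.0733) with adjusted p = 1.16e-21 and STC2 at -1.06 (SE 0.0333) with adjusted p = 2.6e-30. VLDLR was lower by less, at -0.35 (SE 0.0499) with adjusted p = 3.1e-08. FGF21 passed edgeR's filter on low counts only through wt, with 28 to 32 counts per library against 3 to 8 in cis. With at least 10 counts required in every library it was not tested, and 5 genes were called. The GDF15 level was 45.8 ± 2.63 CPM for wt and 46.3 ± 3.42 CPM for cis cells (mean ± SD, n = 3), and its log2 fold change of -0.02 (SE 0.0519) did not pass (edgeR adjusted p = 0.73).

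Against cis cells, cis SSP cells were lower in 5 of the 6 genes that passed edgeR's filter on low counts, where 15.8% of all genes were called higher and 13.3% lower. NIBAN1 was lower by a log2 fold change of -2.93 (SE 0.240, edgeR adjusted p = 0.000499) and LAMP3 by -1.85 (SE 0.150, adjusted p = 0.00045). GDF15 was at -1.45 (SE 0.274, adjusted p = 0.0105), STC2 at -0.75 (SE 0.0887, adjusted p = 0.00174) and VLDLR at -0.72 (SE 0.0917, adjusted p = 0.00227). INHBE, at 11.5 ± 0.994 CPM and 14.3 ± 0.944 CPM, did not pass with 0.34 (SE 0.113, adjusted p = 0.0683), and FGF21 was not tested. Without library 25 the fold change was -1.82 for GDF15, -2.70 for NIBAN1 and -1.71 for LAMP3, and INHBE was called at 0.31 (adjusted p = 0.00586). The GDF15 call was lost without library 13, a cis library (log2 fold change -1.39, edgeR adjusted p = 0.0513). It stood near the threshold without either other cis library, at 0.05 (rounded, still called) without library 14 and 0.0442 without library 15. Without a cis SSP library the adjusted p was 2.3e-18 (library 25), 0.034 (library 26) and 0.028 (library 27).

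Against wt cells, cis SSP cells were lower in GDF15, FGF21, INHBE, STC2 and VLDLR and higher in LAMP3, beside 20.7% of all genes called higher and 21.7% lower. STC2 had a log2 fold change of -1.82 (SE 0.0900, edgeR adjusted p = 1.47e-05), FGF21 -1.49 (SE 0.187, adjusted p = 0.000926) and GDF15 -1.48 (SE 0.274, adjusted p = 0.00571). FGF21 held 9 to 11 counts per cis SSP library, against 28 to 32 in wt, and was not tested with at least 10 counts per library. VLDLR had -1.08 (SE 0.0926, adjusted p = 0.000167), INHBE -1.06 (SE 0.105, adjusted p = 0.000316) and LAMP3 2.27 (SE 0.209, adjusted p = 0.000232). NIBAN1, higher in cis than in either other line, had 10.4 ± 1.71 CPM (wt) and 10.5 ± 3.18 CPM (cis SSP) and did not pass (adjusted p = 0.981). It was called without library 25 (log2 fold change 0.23, adjusted p = 0.0393). The summed level of the 11 markers of other cell types also differed between the lines, at 532 to 564 CPM in wt, 5.53 to 5.84 CPM in cis and 40.6 to 47.2 CPM in cis SSP. Nearly all of it came from the mesenchymal genes, the immune cell gene PTPRC had at most 1 count in a library, and the part of these genes in the line differences was not tested. In such bulk libraries fewer cells with a transcript and less of it per cell cannot be told apart.

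**Figure D2:**
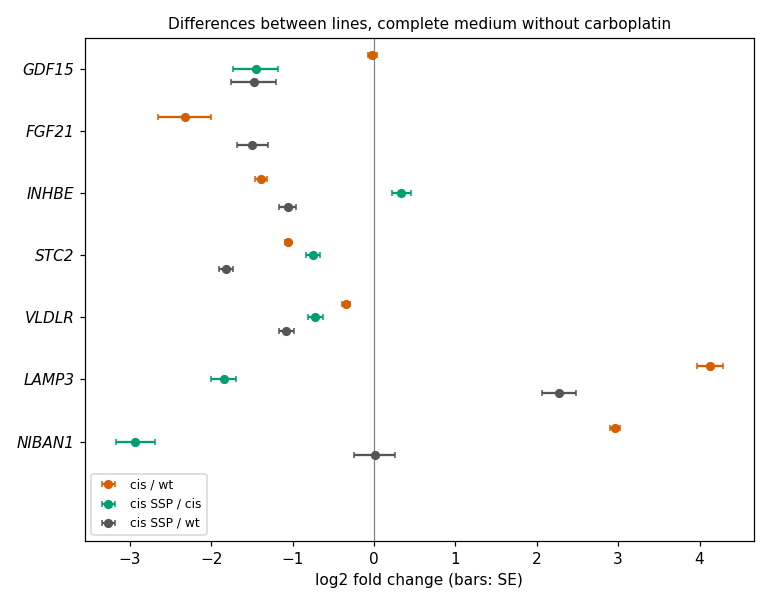
Fitted log2 fold change (x axis, bars are standard errors, 3 libraries against 3) of each gene between the lines in complete medium without carboplatin, in orange for cis against wt, green for cis SSP against cis and grey for cis SSP against wt. LAMP3 and NIBAN1 lie to the right for cis against wt, at 4.13 and 2.96, and to the left for cis SSP against cis, and FGF21 has no point there because it did not pass the filter.

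Without serine and glycine all 7 genes had higher means in every line, as their choice would have it. All 3 deprived libraries lay above all 3 controls for 7 of 7 genes in wt and in cis and for 6 of 7 in cis SSP, against 26.4%, 36.8% and 7.38% of all genes tested. The order of the genes differed between lines. Deprivation was not the same step for each, because cis SSP cells had grown out in medium without serine and glycine. By the study's report, cis cells at first stopped growing in such medium and wt cells kept growing. The part of these differences in the fold changes was not tested. The largest fitted log2 fold changes were those of LAMP3 (2.85, SE 0.197), FGF21 (2.79, SE 0.128) and NIBAN1 (2.48, SE 0.0728) in wt, and of LAMP3 (3.998, SE 0.0480), NIBAN1 (2.52, SE 0.0316) and GDF15 (2.39, SE 0.0390) in cis. In cis SSP they were those of FGF21 (2.44, SE 0.210), INHBE (2.24, SE 0.123) and NIBAN1 (1.84, SE 0.377). LAMP3 and GDF15 came last in cis SSP, at 0.62 (SE 0.187) and 0.68 (SE 0.395). Without libraries 25 and 32 the cis SSP values were 2.39 for FGF21, 2.34 for INHBE, 1.88 for NIBAN1, 1.78 for VLDLR and 1.65 for STC2, and 0.58 for LAMP3 and 0.68 for GDF15.

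With carboplatin in both media the fitted deprivation fold changes were smaller than without it in every gene and line that had both values, except NIBAN1 in cis. In wt cells they came close to 0 for GDF15 (0.09, SE 0.0721), STC2 (0.09, SE 0.0498), VLDLR (-0.01, SE 0.0776), LAMP3 (0.04, SE 0.360) and NIBAN1 (0.10, SE 0.117), and INHBE was at 0.52 (SE 0.0613). FGF21 did not pass the filter there. Its ratio of means was 2.09 without overlap, on 4 to 9 counts per library. In cis cells NIBAN1 was at 2.58 (SE 0.0396) with the drug and 2.52 without it, and LAMP3 at 3.53 (SE 0.0629) and 3.998. GDF15 was at 0.79 (SE 0.146) in cis, and at 1.03 without libraries 23 and 24. FGF21 was at 0.74 (SE 0.371) and at 0.14 without them. In cis SSP cells VLDLR (0.98, SE 0.0608), STC2 (0.69, SE 0.0426), NIBAN1 (0.52, SE 0.0738) and INHBE (0.51, SE 0.0841) were the largest of the line. These differences between lines, and between media with and without the drug, are described and were not tested.

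**Figure D3:**
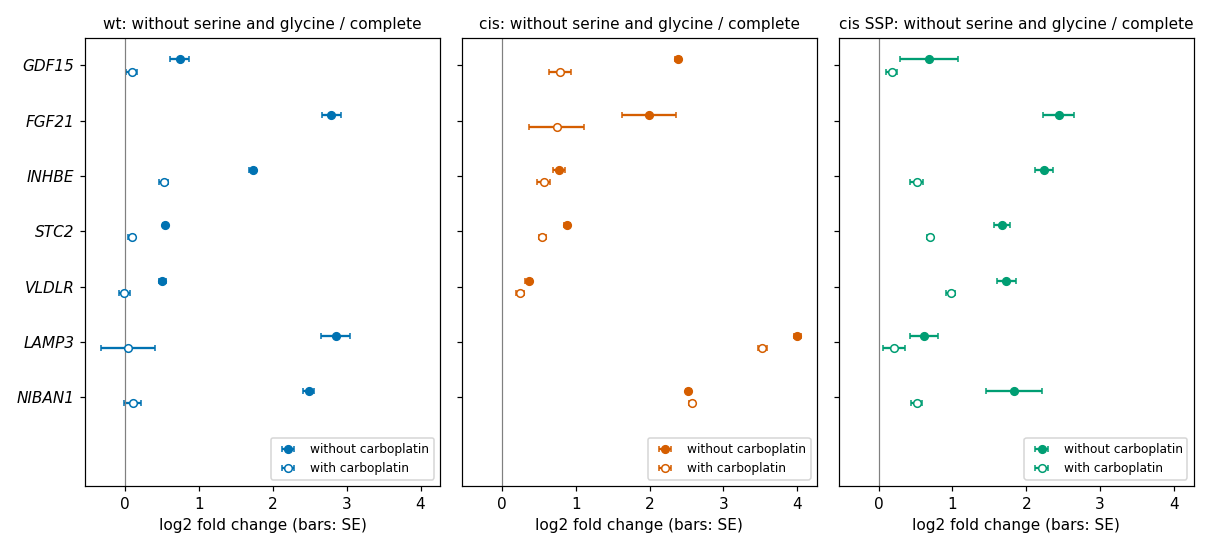
Fitted log2 fold change (x axis, bars are standard errors) of each gene without serine and glycine against complete medium, in wt (left), cis (middle) and cis SSP (right), without carboplatin (filled) and with carboplatin (open). In wt the open points lie between -0.01 and 0.52, and in cis the open points of LAMP3 and NIBAN1 lie at 3.53 and 2.58. FGF21 has no open point in wt and cis SSP because it did not pass the filter there.

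Carboplatin divided the genes. GDF15 was higher in every line, by a fitted log2 fold change of 4.28 (SE 0.0248) in wt, 2.15 (SE 0.0555) in cis and 2.75 (SE 0.292) in cis SSP (3.14 without library 25). In wt cells 4 of the other genes were lower, FGF21 (-2.68, SE 0.356), VLDLR (-1.30, SE 0.0562), STC2 (-1.25, SE 0.0325) and NIBAN1 (-0.89, SE 0.106), and LAMP3 (0.55, SE 0.318) and INHBE (0.18, SE 0.0536) were slightly higher. In cis cells the 5 other genes past the filter lay between -0.14 (NIBAN1) and 0.18 (LAMP3). In cis SSP cells the 6 others lay between -0.67 (FGF21) and 0.44 (NIBAN1, 0.22 without library 25). When the cells also lacked serine and glycine, the 6 genes other than GDF15 had lower means with carboplatin in each line. The fold changes of these 6 ran from -4.41 (FGF21) to -1.02 (INHBE) in wt, from -0.41 (FGF21) to -0.07 (NIBAN1) in cis, and from -2.99 (FGF21) to -0.26 (LAMP3) in cis SSP. GDF15 was at 3.64 (SE 0.121), 0.57 (SE 0.130) and 2.22 (SE 0.303) in the same comparisons. Without libraries 23 and 24, of cis -SG carbo, the value in cis was -1.03 for FGF21 and 0.80 for GDF15. The summed level of the 11 markers of other cell types was 1608 to 1639 CPM in wt carbo and 1487 to 1762 CPM in wt -SG carbo, against 532 to 564 CPM in wt, and its part in these values was not tested.

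**Figure D4:**
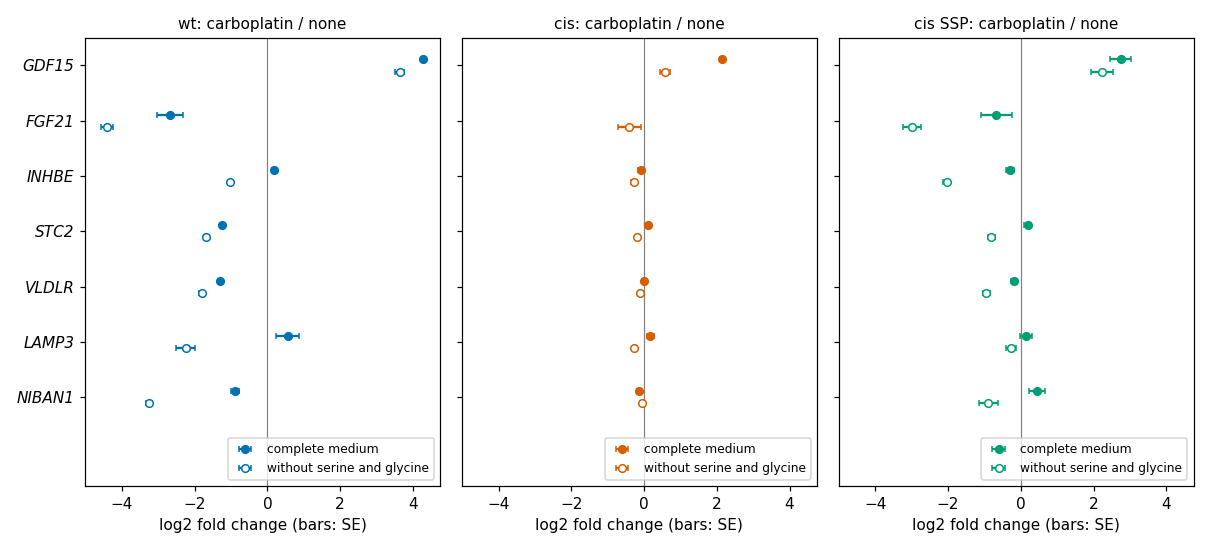
Fitted log2 fold change (x axis, bars are standard errors) of each gene with carboplatin against none, in wt (left), cis (middle) and cis SSP (right), in complete medium (filled) and without serine and glycine (open). GDF15 lies to the right in all panels, from 0.57 to 4.28, and FGF21 reaches -4.41 in deprived wt cells.

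Other targets of ATF4 were followed in a list of 42 genes that left out the 7. In wt cells without serine and glycine 37 of the 41 tested rose and 2 fell (edgeR, median log2 fold change 0.36), against 24.1% of all genes called higher and 25.1% lower. In cis cells 37 rose and 2 fell (median 0.75), against 37.6% and 37.4%. The transcription factor ATF5 rose in both, with log2 fold changes of 1.84 (SE 0.0393) in wt and 2.37 (SE 0.0320) in cis, as did the stress-induced chromatin protein NUPR1, at 1.20 (SE 0.0368) and 3.04 (SE 0.0807). The cystine transporter SLC7A11 rose in wt (1.09, SE 0.0567), and the transcription factor ATF3 fell in wt (-0.36, SE 0.0708) and rose in cis (3.13, SE 0.0599). The proline synthesis enzyme ALDH18A1 fell in both (-0.21 in wt and -0.27 in cis) and the mitochondrial serine enzyme SHMT2 fell in cis (-0.47). In cis SSP cells edgeR called 0 of 41, with 0.0218% of all genes called higher and 0% lower. Of the list, 32 were higher at an unadjusted p under 0.05 and DESeq2 called 25 higher, both without a share of all genes to set beside them. The list's median there was 0.84, and without libraries 25 and 32 edgeR called 39 of its genes higher, against 18.9% of all genes.

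With carboplatin in both media, deprivation called 0 of the 41 genes in wt cells, where 0.623% of all genes were called higher and the list's median was -0.04. Of the list, 6 were higher at an unadjusted p under 0.05, DESeq2 called 0, and 6 were called by edgeR without library 11, of wt -SG carbo. No share of all genes is given for these counts. In cis cells 36 of 42 were called higher (median 0.67, 35.2% of all genes), and in cis SSP cells 36 of 41 (median 0.38, 4.93% of all genes). Under carboplatin alone 12 list genes rose and 26 fell in wt cells (median -0.19), with 38.9% of all genes called higher and 39% lower. ATF3 (log2 fold change 1.84, SE 0.0473) and SESN2 (1.14, SE 0.0267), a stress-induced inhibitor of mTORC1 signalling, rose, and the serine synthesis enzyme PHGDH (-1.41, SE 0.0215) and asparagine synthetase ASNS (-1.24, SE 0.0233) fell. In cis cells 11 rose and 11 fell, against 9.27% and 10.8% of all genes. In cis SSP cells 2 rose, ATF3 (1.73, SE 0.163) and SESN2 (0.62, SE 0.0865), against 1.97% of all genes higher and 0.749% lower. Without library 25 the count was 16. The shares just given do not belong to that fit, so the 16 has no share of all genes beside it.

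**Figure D5:**
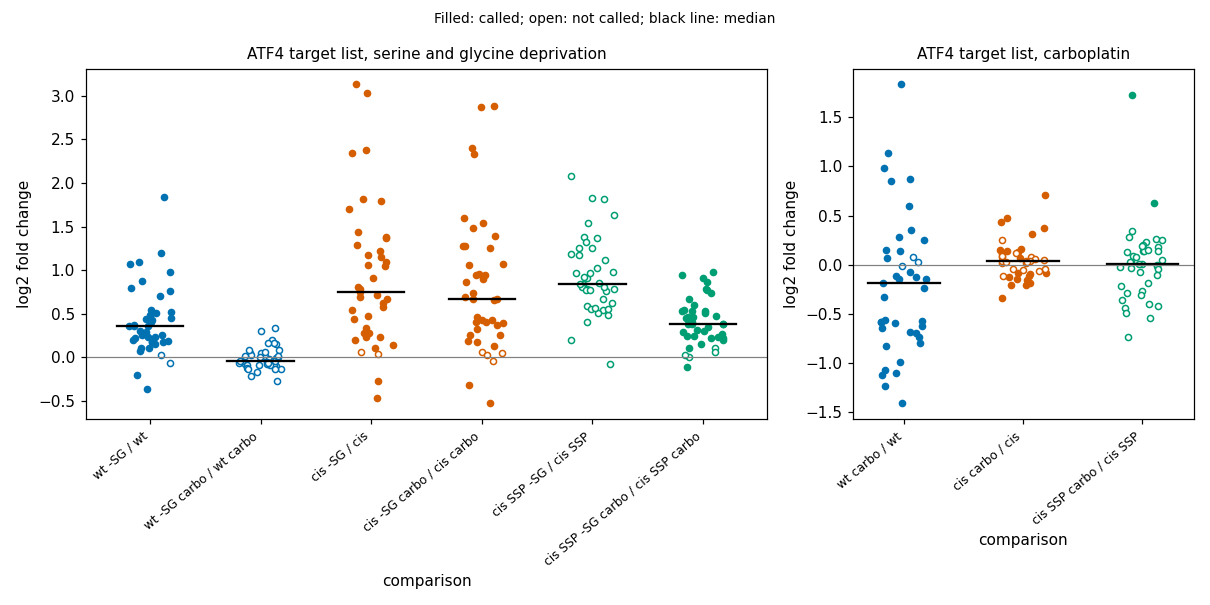
Fitted log2 fold change (y axis) of each tested gene of the ATF4 target list under deprivation (left) and carboplatin (right), in blue for wt, orange for cis and green for cis SSP. Filled points are genes called by edgeR, open points were not called, and the black line is the median, which for the ATF4 list under deprivation was 0.36 in wt and -0.04 in wt with carboplatin.

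Among the regulators, the ATF4 transcript had a mean of 524 CPM in wt, 427 CPM in cis and 304 CPM in cis SSP in complete medium. It was slightly lower in deprived wt cells (log2 fold change -0.06, SE 0.0215, edgeR adjusted p = 0.0168) and higher in deprived cis cells (0.34, SE 0.0268, adjusted p = 1.81e-15), and fell under carboplatin in wt (-0.53, SE 0.0193, adjusted p = 7.64e-118). DDIT3, which encodes the stress transcription factor CHOP, was at 15.2 CPM in wt, 24.7 CPM in cis and 7.42 CPM in cis SSP. It rose with deprivation in wt (0.37, SE 0.0794, adjusted p = 0.000612) and more in cis (1.38, SE 0.0531, adjusted p = 5.04e-27). Of the 19 regulators, 10 of 18 tested rose and 6 fell with deprivation in wt, against 24.1% and 25.1% of all genes. In cis 10 rose and 8 fell, against 37.6% and 37.4%.

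The receptors and partners of the secreted factors were in part at or near 0 counts. The GDF15 receptor GFRAL had 1 count over all 36 libraries, while its co-receptor RET was at a mean of 7.42 CPM. For FGF21, the co-receptor KLB had a mean of 0.477 CPM, beside FGFR1 at 239 CPM, FGFR3 at 42.7 CPM and FGFR4 at 57.0 CPM. FGFR2 had no count in the 3 wt libraries in complete medium, which allows up to 0.0548 CPM, and was at 12.1 and 15.3 CPM in cis and cis SSP. For activins, ACVR1C was at 0.118 CPM, ACVR1B at 14.9 CPM, ACVR2A at 12.8 CPM and ACVR2B at 38.4 CPM. PAPPA, the protease that STC2 inhibits, was at 12.9 CPM in wt, 147 CPM in cis and 90.1 CPM in cis SSP, while STC2 itself was lower in cis and in cis SSP than in wt. Of 14 receptors and partners tested between cis and wt, 8 were higher in cis and 4 lower, against 39.4% and 39.1% of all genes. Of 15 related genes of the same families, 8 reached a mean of 1 CPM, and 5 of 10 tested were higher and 4 lower in cis than in wt, against the same shares of all genes. One of them, named after its values were seen, is INHBA, the activin beta A subunit related to INHBE, at 0.0185 CPM in wt, 192 CPM in cis and 143 CPM in cis SSP. LRP8, the receptor most like VLDLR, was at 58.6, 92.5 and 53.5 CPM.

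The genes most like each of the 7 were found by Pearson's r of log2(CPM + 1) over the 12 condition means, which share lines and treatments, so r is a description. For GDF15 they were RNF19B (0.967), MAP3K14 (0.966) and RGS20 (0.965). For FGF21 they were FUT1 (0.924), ST6GALNAC6 (0.922) and APOLD1 (0.917), and for INHBE ASCC1 (0.930), EIF1B (0.906) and SARS1 (0.892), the cytosolic seryl-tRNA synthetase. STC2 was most like ASNS (0.940), ZCCHC8 (0.933) and FUT1 (0.928), and VLDLR most like ASNS (0.975), the methionyl-tRNA synthetase MARS1 (0.910) and the serine synthesis enzyme PSAT1 (0.906). LAMP3 was most like the small nucleolar RNA host gene SNHG29 (0.993), PREPL (0.986) and ZNF25 (0.985), and NIBAN1 most like TCEA1 (0.983), SNHG29 (0.979) and the pseudokinase TRIB3 (0.978). Some did not stand among the highest by Spearman's rank correlation of the same means. These were FUT1 (0.734) and ST6GALNAC6 (0.657) for FGF21, and EIF1B (0.797) and SARS1 (0.86) for INHBE. The others were MARS1 and PSAT1 (both 0.888) for VLDLR and TRIB3 (0.937) for NIBAN1. By Pearson's r over the 36 libraries, EIF1B with INHBE (0.737) and PREPL with LAMP3 (0.87) did not stand among the highest. Among the 7 themselves, LAMP3 and NIBAN1 were the most alike (0.958), followed by STC2 and VLDLR (0.876) and by FGF21 and STC2 (0.829). GDF15 ran from -0.45 (VLDLR) to 0.12 (LAMP3) with the others.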

How the data were processed

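RNA was sequenced from 36 libraries, 3 for each of 12 conditions, grouped by the samples' labels. The authors deposited raw read counts per gene: STAR was used for alignment of single reads to GRCh37.p13, SAMtools for conversion, and HTSeq with GENCODE v19 for counting. The strand setting is not given in the sources used here. The 3 rows that name no gene were left out of library sizes and tests. The reads on no feature were 4.21% to 17.9% of a library.

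GENCODE v44 mapped to GRCh37 supplied symbols and positions and named 55538 of 57820 identifiers. Counts were tested with edgeR 4.0.16 in R 4.3.3 (TMM, filterByExpr, glmQLFit with robust estimation, glmQLFTest), each comparison on the 6 libraries of its own conditions, with Benjamini-Hochberg adjustment over all genes tested and a threshold of 0.05. Each standard error is the absolute fitted log2 change over the root of F. DESeq2, here in version 1.42.0, was an alternative. The authors name DESeq and DESeq2 without a version. Others were size factors of DESeq2 in edgeR, no TMM, no filter, a minimum of 10 counts per library, 1 joint fit of all 36 libraries, an added minimum log2 change of 1, omission of single libraries, and libraries 25 and 32, or 23 and 24, left out together. The mean chi-square between libraries of a condition was 1.20 to 123 in 36 pairs, so none was counted as a duplicate.

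The 7 genes, the gene lists and the tests were chosen with earlier results of these data known, and the ATF4 list under both treatments was counted after the levels of the 7 genes had been seen. The genes named beside them were ATF4 and DDIT3, at most 3 called list genes with the largest fold change in each direction of a comparison, receptors and partners of the 7 genes, and for each gene the 3 with the highest r. Some planned list, motif and single-gene results are not reported here. No paired analysis was possible because the labels give no replicate numbers. On simulated counts with 200 genes changed by a log2 fold change of 1, the test recovered 186 for cis against wt (14152 genes, 2 false calls) and 146 for cis SSP against cis (13536 genes, 9 false calls). The simulation gave all genes the common dispersion of the comparison and had no library standing apart. Its figures therefore need not hold for the real libraries.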

Additional observations from a re-analysis of the deposited data

Results flagged for a closer look

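For 4 genes all carboplatin libraries lay above the untreated ones in one line and below them in another, in complete medium. How many of all genes did the same was not counted, so this number by itself does not mark these genes. By edgeR, carboplatin called 38.9% of all genes higher and 39% lower in wt. The shares were 9.27% and 10.8% in cis, and 1.97% and 0.749% in cis SSP. The difference between the lines was not tested, because these genes were chosen by such responses. The values are differences of the log2 ratio of means. FGF21 had a ratio of 1.71 in cis and 0.151 in wt, a difference of 3.50, on 3 to 8 counts per cis library without the drug. The cis carbo libraries held 8, 6 and 13 counts, which overlap the untreated counts. Their lowest level, 0.4522 CPM, barely cleared the highest untreated one, 0.4511 CPM. FGF21 did not pass the filter in this comparison, so its cis side cannot be told from no change. STC2 had ratios of 1.06 in cis and 1.14 in cis SSP against 0.414 in wt, differences of 1.35 and 1.46. NIBAN1 had a ratio of 1.36 in cis SSP, with library 25 the lowest untreated library, against 0.535 in wt and 0.888 in cis, differences of 1.35 and 0.620. INHBE had a ratio of 1.12 in wt against 0.918 in cis and 0.818 in cis SSP, differences of 0.283 and 0.449. Its fitted log2 fold change in cis, -0.09, was smaller than its SE of 0.0918.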

How the results depend on the processing

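Depth limited FGF21, which did not pass the filter in 4 comparisons, and LAMP3 in wt cells. Between lines, 234 alternative values of the 7 genes kept direction and call, 5 gained a call, 1 lost it and 11, none called, changed sign. Those 11 were log2 fold changes of -0.17 to 0.029. For GDF15 in cis against wt they were 0.0011 without a filter, 0.0014 in one fit over 36 libraries and, with each library left out, values within -0.076 to 0.029. For NIBAN1 in cis SSP against wt they were -0.0054 with DESeq2 size factors, -0.0097 with at least 10 counts per library, -0.0075 by DESeq2 and, with each library left out, values within -0.17 to 0.23. The changed calls were GDF15 in cis SSP against cis, lost without library 13, and INHBE there and NIBAN1 in cis SSP against wt, called without library 25 and for INHBE also in one fit over 36 libraries (log2 fold change 0.36, edgeR adjusted p = 0.000446). Of the called genes in cis SSP against cis, 3 of 5 changed by at least 1 on the log2 scale. Of 998 alternative values of the responses, 956 moved by less than 1 SD, 9 changed sign (VLDLR, GDF15 and LAMP3, the last at -0.45 without 1 library of wt -SG carbo), and the largest move was 0.621, for FGF21 under carboplatin in deprived cis cells without libraries 23 and 24.

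The count of ATF4 list genes called higher was 24 in one fit over 36 libraries for wt deprivation. For cis SSP deprivation it was 25 by DESeq2, 37 in one fit and 39 without libraries 25 and 32. For cis carboplatin it was 7 by DESeq2 and 3 in one fit. For cis SSP carboplatin it was 1 without a filter, 4 in one fit, 16 without libraries 25 and 32, and 0 to 16 with each library left out. For wt deprivation under carboplatin it was 2 without a filter and 0 to 6 with each library left out. With a minimum log2 change of 1 it was 4 for wt and 17 for cis deprivation, 2, 0 and 1 for wt, cis and cis SSP carboplatin, and 13 and 0 for cis and cis SSP deprivation under carboplatin. Of these counts, only the 39 has a share of all genes from its own fit, given above. No called result reversed, and the cause of these differences was not tested beyond the libraries named.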
